A study of Mus musculus with 6 samples.

Results

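The genes described here are the collagen chains of cultured hepatic stellate cells, chosen by name: Col, digits, a, digits and nothing after. The deposited table held 44 genes with such names, and 33 of them had at least 10 counts in at least 3 of the 6 libraries. Hepatic stellate cells are the pericytes of the liver sinusoid. They came from S100a16+/- mice, which carry a single working copy of the gene for the calcium-binding protein S100A16, and from WT mice, both on the C57BL/6J background. All 6 cultures were kept for 7 days in medium with fetal serum, and RNA of each genotype was sequenced from 3 libraries. The labels do not say how many animals were used, whether a library is 1 animal or a pool, or how the heterozygous line was made. The p-values therefore measure only the spread between these libraries. The comparison asks which collagen genes differ in these stellate cell cultures, taken whole, when S100a16 is reduced.

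Collagens are the main proteins of the extracellular matrix, built of chains that wind together as trimers. Fibrillar types I, III and V form the cables of scar tissue, type IV forms the sheet of basement membranes, type VI forms beaded microfilaments, and the fibril-associated types coat the cables. A trimer needs its partner chains in the same cell, so the genes of partner chains are usually expressed together. Quiescent stellate cells lie on a thin basement membrane-like matrix, and on activation they become myofibroblasts that secrete type I and III collagen, the scar of liver fibrosis.

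The libraries held 61979103 to 76291481 counts. FPKM, the fragments per kilobase of transcript and per unit of library size, compares genes per length. S100a16 itself stood at 18.0, 17.7 and 30.0 FPKM in the S100a16+/- libraries, against 57.7, 58.8 and 56.8 FPKM in the WT libraries. Its mean of 21.9 ± 7.02 FPKM in S100a16+/- compared with 57.8 ± 1.02 FPKM in WT (SD, n = 3 each; exact two-sided permutation p = 0.1, the smallest that 3 against 3 libraries allow), and its log2 change was -1.35 (edgeR adjusted p = 0.0313). That call was lost when any library other than S100a16+/- replicate 3 was left out (edgeR adjusted p from 0.105 to 0.143), and was kept at -1.63 without that replicate (edgeR adjusted p = 4.22e-05). The library of S100a16+/- replicate 3 was set apart. Its Pearson correlation across genes was 0.930 and 0.929 with the other S100a16+/- libraries, against 0.987 between those and 0.981 to 0.985 among WT. The transcript Xist, made from the inactive X chromosome of females, had 32.2 FPKM in that library and at most 0.0323 FPKM in the others. The Y-linked gene Ddx3y had 4 counts in that library and 4943 to 6619 counts in the others. By these transcripts that library was of female type and all others of male type. Sex therefore cannot be told apart from whatever else sets that library apart. Collagen results are given with and without that library for this reason.

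Markers of other cell types were present beside those of stellate cells. In every library the macrophage and endothelial sums exceeded the stellate sum. The 12 stellate and myofibroblast markers, 8 of them at the level needed for testing, summed to 921, 901 and 139 FPKM in S100a16+/- replicates 1 to 3, against 711 to 795 FPKM in WT. Acta2, the smooth muscle actin of activated stellate cells, had 489, 470.1 and 48.0 FPKM in S100a16+/-, against 388, 437 and 425 FPKM in WT. Acta2 and Tagln made up most of each sum. Over 6 libraries edgeR called none of the 8. Without S100a16+/- replicate 3 it called 5 higher and none lower, where 15.8% and 16.4% of all genes were. In that replicate Lox had 13.9 FPKM, against 6.76 to 12.5 FPKM in WT, and Rgs5 and Reln, not tested, were also above every WT library. The other tested markers were below every WT library there. The 13 endothelial markers, 12 of them tested, summed to 1009, 966 and 2131 FPKM in S100a16+/- replicates 1 to 3, against 1810 to 1951 FPKM in WT. Cdh5, the cadherin of endothelial junctions, had 290.3, 283 and 930.1 FPKM in S100a16+/-, against 698, 628 and 657 FPKM in WT. The members of this list differed. Without S100a16+/- replicate 3, edgeR called 9 of the 12 lower and 1, Fcgr2b, higher, where 16.4% and 15.8% of all genes were. For Fcgr2b every S100a16+/- library was above every WT library. Oit3 had 181, 170 and 74.2 FPKM in S100a16+/-, against 171, 172 and 155 FPKM in WT. Clec4g, not tested, was also lowest in S100a16+/- replicate 3. Eng had 173, 165 and 212 FPKM in S100a16+/-, against 176, 164 and 157 FPKM in WT. The 12 macrophage markers summed to 10327 to 16167 FPKM in S100a16+/- and 7605 to 7958 FPKM in WT. Most of it was Lyz2, at 5460 to 10057 FPKM in S100a16+/- and 4377 to 4595 FPKM in WT. Over 6 libraries edgeR called 4 of the 12 higher and none lower, where 2.85% and 1.61% of all genes were. Timd4, not called, had 18.0 to 31.8 FPKM in S100a16+/- and 36.6 to 39.1 FPKM in WT. The 10 hepatocyte markers summed to 9.41, 9.51 and 483 FPKM in S100a16+/- replicates 1 to 3, against 65.6 to 99.3 FPKM in WT. The 9 portal fibroblast markers summed to 47.5 to 80.4 FPKM in S100a16+/- and 86.3 to 90.3 FPKM in WT. Fbln2 made up most of each sum, and other members were split. Without S100a16+/- replicate 3, edgeR called 1 of the 4 tested higher, Thy1, and 2 lower, Cd34 and Eln. Of all genes, 15.8% were higher and 16.4% lower in that fit. Eln reached 1 FPKM in WT alone, so it had to differ. For Entpd2, not tested, every S100a16+/- library was above every WT library. The 6 cholangiocyte markers summed to 79.1 to 228 FPKM in S100a16+/- and 33.2 to 39.0 FPKM in WT, nearly all of it Spp1 (osteopontin), at 77.2 to 226 FPKM in S100a16+/- and 30.2 to 35.8 FPKM in WT. Of the same list, Sox9 had 0.351 to 1.08 FPKM in S100a16+/- and 1.27 to 1.50 FPKM in WT, and Cftr 0.231 to 0.503 FPKM in S100a16+/- and 0.921 to 1.10 FPKM in WT. Epcam, not tested, went the other way, with 0.323 to 0.498 FPKM in S100a16+/- and 0.0462 to 0.246 FPKM in WT. No marker of the stellate, endothelial and macrophage lists was under 10 counts in all 6 libraries. The hepatocyte marker Cyp2e1 was. The stellate markers Lrat, Rgs5, Reln and Ngfr were nevertheless low, with at most 0.0517, 0.303, 0.531 and 0.406 FPKM in any library. In such bulk RNA, fewer cells of a type and less RNA per cell cannot be told apart. Which cells held each collagen transcript was not measured.

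Col4a1 and Col4a2, the most abundant chains in these libraries, start back to back on chromosome 8 and overlap by 22 bases at their 5′ ends. Col4a4 and Col4a3 have the same arrangement on chromosome 1, 71 bases apart, as do Col4a6 and Col4a5 on the X chromosome, 1308 bases apart. The RefSeq windows around these starts (GRCm38.p6, 250 bases before to 50 after the start site) are shown because each lies between neighbouring chains whose levels are compared further on. The Col4a1 window is chr8:11312777-11313076 on the minus strand, the Col4a2 window is chr8:11312555-11312854 on the plus strand, and they share 78 bases. The Col4a4 window is chr1:82586800-82587099 on the minus strand and contains the start of Col4a3 as the deposited table gives it. Capitals mark CCAAT or its reverse complement ATTGG (the CCAAT box) and GGGCGG or CCGCCC (the GC box that Sp1 binds), and no match overlapped another motif.
Col4a1: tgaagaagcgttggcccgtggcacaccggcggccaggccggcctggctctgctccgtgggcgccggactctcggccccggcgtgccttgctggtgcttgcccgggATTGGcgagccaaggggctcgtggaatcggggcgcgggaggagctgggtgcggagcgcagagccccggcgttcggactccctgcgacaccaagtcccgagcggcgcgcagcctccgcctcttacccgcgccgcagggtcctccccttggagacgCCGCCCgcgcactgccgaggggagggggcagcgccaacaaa
Col4a2: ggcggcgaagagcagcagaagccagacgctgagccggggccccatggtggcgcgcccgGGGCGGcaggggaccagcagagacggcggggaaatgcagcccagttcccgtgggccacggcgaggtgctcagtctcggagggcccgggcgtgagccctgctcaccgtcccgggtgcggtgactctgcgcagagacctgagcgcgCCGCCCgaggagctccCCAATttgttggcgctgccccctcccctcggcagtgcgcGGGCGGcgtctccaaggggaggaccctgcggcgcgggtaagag
Col4a4: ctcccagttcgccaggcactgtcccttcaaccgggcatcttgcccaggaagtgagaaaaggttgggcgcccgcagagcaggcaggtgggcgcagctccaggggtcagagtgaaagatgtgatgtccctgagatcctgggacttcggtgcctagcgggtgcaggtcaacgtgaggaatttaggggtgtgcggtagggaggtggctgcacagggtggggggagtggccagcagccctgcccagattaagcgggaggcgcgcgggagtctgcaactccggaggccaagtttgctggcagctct
The stretch shared by the Col4a1 and Col4a2 windows held 1 GC box and no CCAAT box, and the Col4a4 window held neither. Across 32851 RefSeq windows of the same length, 35.7% held a GC box and 37.4% a CCAAT box, and among the 29 windows of the collagen genes, which cover 27 of the 33 chains, 19 and 9 did. TATAAA or TTTATA was found in 3 of the 29 and in 13.6% of all windows. These matches describe the letters only.

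Summed over the 33 chains, collagen FPKM was 1231, 1161 and 1251 in S100a16+/- replicates 1 to 3, against 1893, 1829 and 1880 in WT. The mean sum of 1214 ± 47.2 FPKM in S100a16+/- was 65.0% of the 1867 ± 33.6 FPKM in WT (SD, n = 3 each), and the groups did not overlap. As a share of all counts, these chains took 1.04%, 0.984% and 1.01% in S100a16+/- and 1.57%, 1.53% and 1.57% in WT. The sums were alike in the S100a16+/- libraries, but the chains that made them up were not. In S100a16+/- replicates 1 and 2 the type IV chains summed to 59.8% and 56.1% of their WT mean, and the fibrillar chains to 87.0% and 82.8% of theirs. In S100a16+/- replicate 3 the type IV chains summed to 86.5% and the fibrillar chains to 25.2%.

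**Figure D1:**
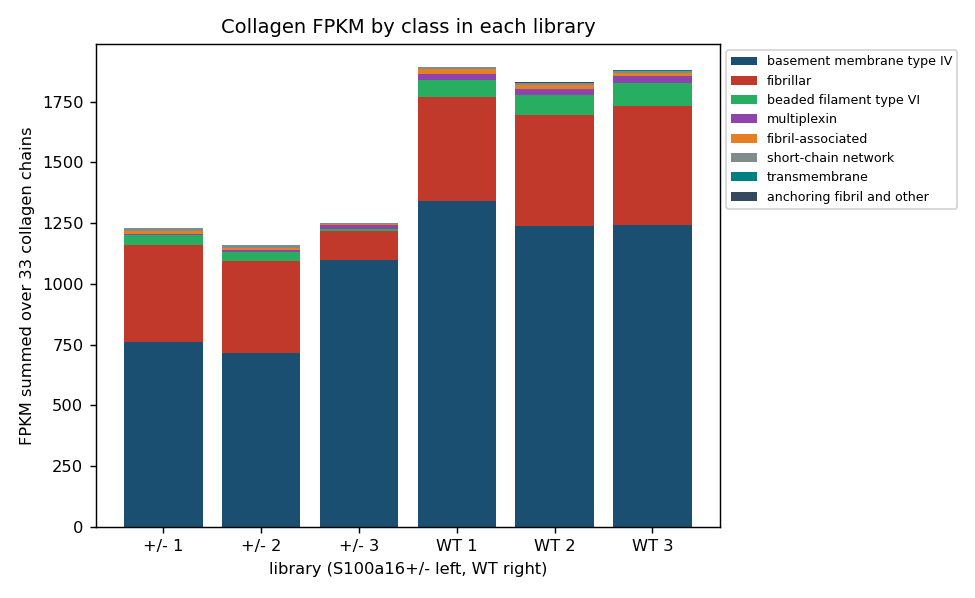
Bars show FPKM summed over the 33 collagen chains in each library, stacked by class, with S100a16+/- libraries on the left and WT on the right; each bar is 1 library. The S100a16+/- bars reach 1161 to 1251 FPKM and the WT bars 1829 to 1893 FPKM, and the third S100a16+/- bar is mostly type IV.

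Type IV made up 61.8%, 61.5% and 87.9% of collagen FPKM in S100a16+/- replicates 1 to 3, against 70.7%, 67.7% and 66.0% in WT. The fibrillar share was 32.5%, 32.8% and 9.25% in S100a16+/-, against 22.6%, 25.0% and 26.2% in WT. The 6 chains highest in WT, Col4a1, Col4a2, Col1a1, Col1a2, Col5a2 and Col6a1, carried 92.1%, 92.1% and 95.6% of the sum in S100a16+/- and 91.0% to 92.1% in WT. The levels of these sums are a description, with no test.

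**Figure D2:**
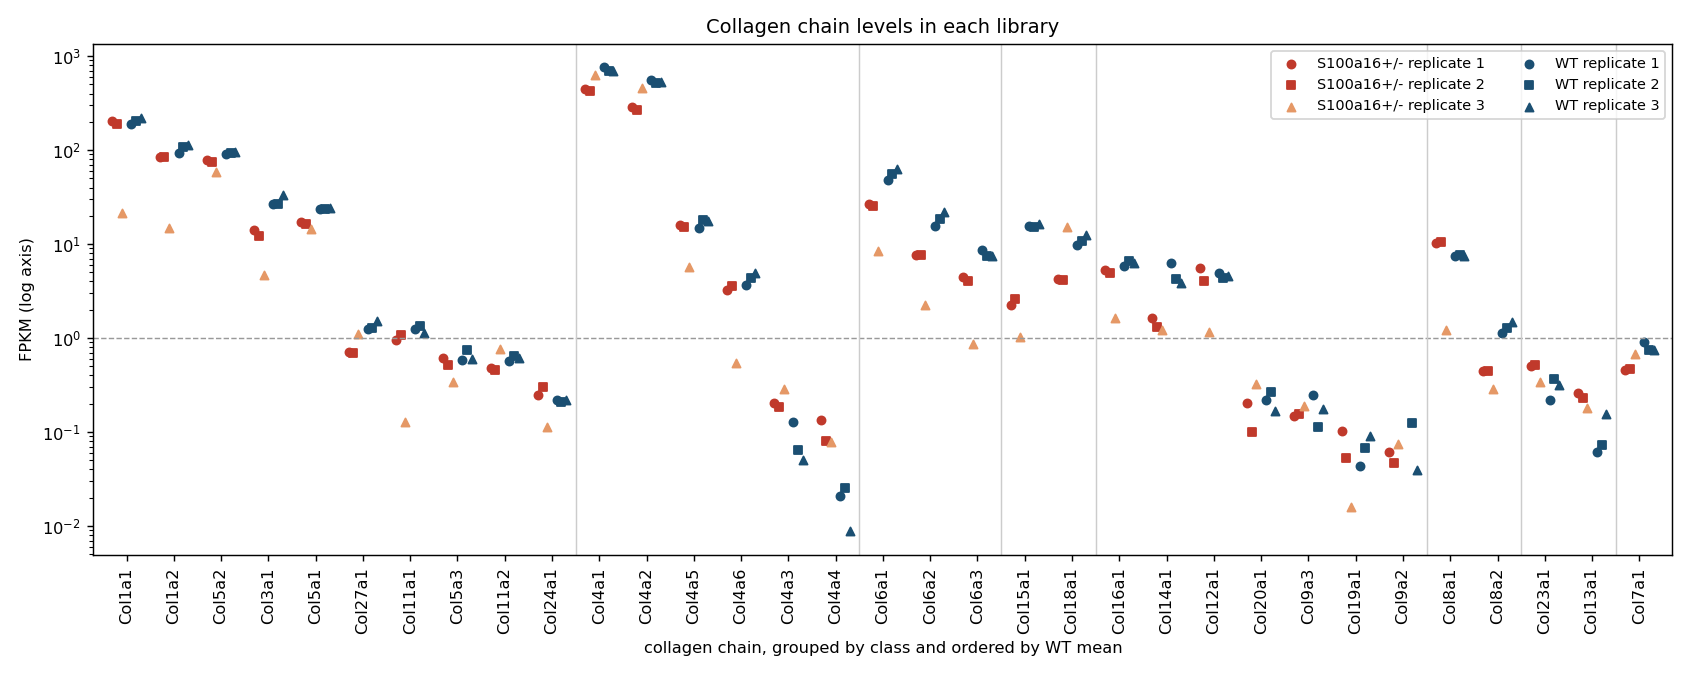
FPKM (log axis) of each of the 33 collagen chains in each library, S100a16+/- points left of WT points, grouped by class; the dashed line is 1 FPKM, and the Col9a2 value with 0 counts in WT replicate 1 is not drawn. Levels run from under 0.1 to 762 FPKM, and S100a16+/- replicate 3 lies apart from the other S100a16+/- libraries in many chains.

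Of the 33 chains, 21 reached the level used for testing, a minimum FPKM of 1 in 3 or more libraries, and the other 12 did not. By edgeR's quasi-likelihood test over 12766 genes, 4 of the 21 fell in S100a16+/- and none rose at a Benjamini-Hochberg adjusted p under 0.05. That is 19.0% of the tested chains, where 1.61% of all tested genes were called lower, 2.85% higher and 4.46% in either direction. Col8a2 had under 1 FPKM in every S100a16+/- library and entered the test through WT alone, so it had to differ; of the other 20 tested chains, 3 fell. At an unadjusted p under 0.05 there were 11 of the 21 chains, against 22.0% of all genes, and a DESeq2 fit called 8 lower and none higher, where it called 5.98% of all genes lower and 8.81% higher. The median log2 change of the 21 chains was -0.63, against 0.00 over all genes tested, and 20 of the 21 log2 changes were negative. In 16 of the 21 (76.2%) every S100a16+/- library lay below every WT library, as in 18.9% of all tested genes, and 15 of the 20 without Col8a2 did. In none did every S100a16+/- library lie above every WT library, as 12.5% of all tested genes did. Without S100a16+/- replicate 3, 13 chains were lower and 1 higher (median -0.65), where 16.4% of all genes were lower and 15.8% higher. That fit has 2 S100a16+/- libraries. In both of them Col8a2 and Col27a1, counted among the 13, had under 1 FPKM. Within that fit these chains reached the minimum through WT alone, so they had to differ.

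**Figure D3:**
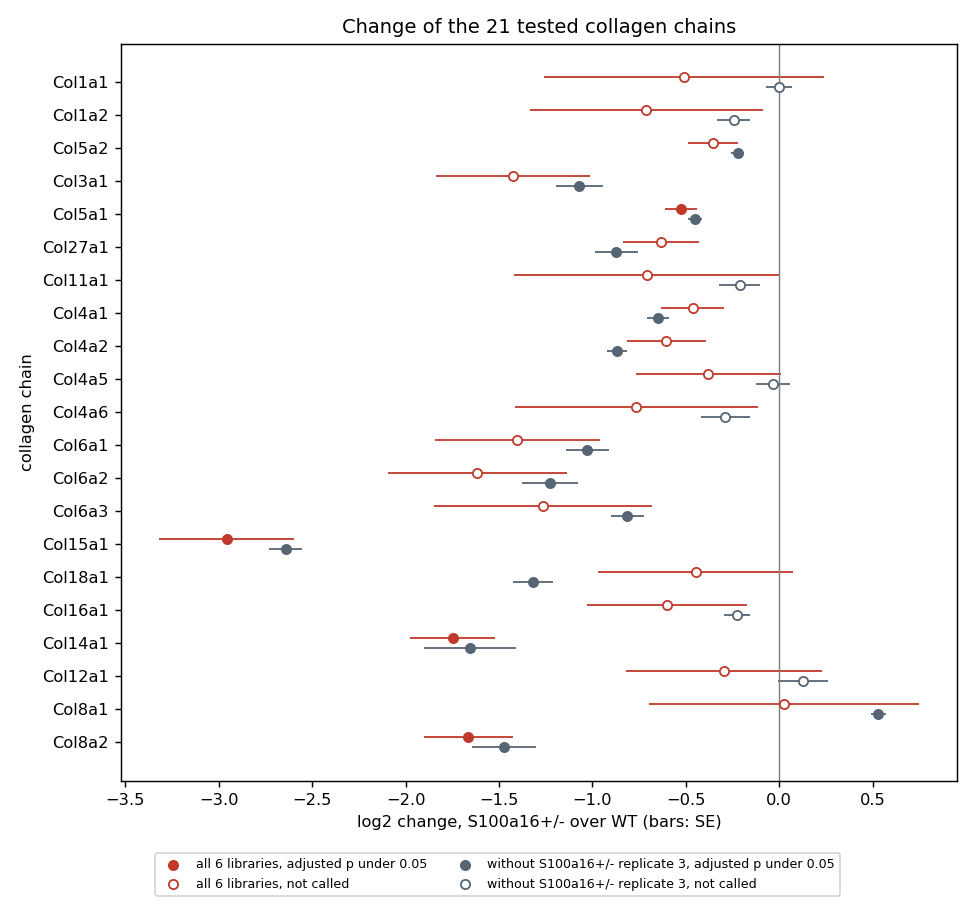
Points show the log2 change of each of the 21 tested chains, S100a16+/- over WT, from edgeR over all 6 libraries (red) and without S100a16+/- replicate 3 (grey); bars are SE and filled points passed an adjusted p of 0.05. The red filled points are Col15a1, Col14a1, Col8a2 and Col5a1, and 14 grey points are filled.

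The chains that fell over all 6 libraries were Col15a1, Col14a1, Col8a2 and Col5a1. Col15a1 encodes the multiplexin chain of type XV, a collagen at the border of basement membrane and fibrils (ENSMUSG00000028339, chromosome 4, 47208161 to 47313167, plus strand). It had 2.26, 2.59 and 1.02 FPKM in S100a16+/- replicates 1 to 3, against 15.7, 15.2 and 16.5 FPKM in WT. Every S100a16+/- library was far below every WT library, at 14.3%, 16.4% and 6.48% of the WT mean. Its log2 change was -2.96 (SE 0.36, edgeR adjusted p = 0.0195), the largest of the 21, and -2.64 without S100a16+/- replicate 3 (edgeR adjusted p = 5.25e-05).

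Col14a1 encodes the type XIV chain, which sits on the surface of type I fibrils (ENSMUSG00000022371, chromosome 15, 55307750 to 55520803, plus strand). It had 1.62, 1.32 and 1.22 FPKM in S100a16+/-, against 6.31, 4.29 and 3.90 FPKM in WT, and the groups did not overlap. Its log2 change was -1.75 (SE 0.23, edgeR adjusted p = 0.0213), and -1.66 without S100a16+/- replicate 3 (edgeR adjusted p = 0.00548). The WT libraries varied more here than for Col15a1, and WT replicate 1 was the highest. The other fibril-associated chains tested, Col16a1 and Col12a1, did not pass, at -0.60 for Col16a1 and -0.30 for Col12a1 on the log2 scale (edgeR adjusted p = 0.482 and 0.791). Col12a1, a chain found in tissues under tension, had 5.52, 4.08 and 1.17 FPKM in S100a16+/- and 4.92, 4.32 and 4.54 FPKM in WT.

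Col8a1 and Col8a2 encode the short chains of type VIII, which form hexagonal networks under endothelium and in vessel walls, and their values differed. Col8a2 had 0.444, 0.448 and 0.288 FPKM in S100a16+/-, against 1.13, 1.28 and 1.49 FPKM in WT. The groups did not overlap, and the log2 change was -1.66 (SE 0.24, edgeR adjusted p = 0.0264). Col8a1 had 10.3, 10.5 and 1.22 FPKM in S100a16+/-, against 7.49, 7.64 and 7.46 FPKM in WT. S100a16+/- replicates 1 and 2 were above every WT library and replicate 3 far below. Over 6 libraries its log2 change of 0.026 (SE 0.72) did not pass (edgeR adjusted p = 0.988), and without replicate 3 it was the chain called higher, at 0.53 (SE 0.04, edgeR adjusted p = 0.000594). Its direction over 6 libraries turned with library totals in place of TMM scaling, at -0.038.

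Among the fibrillar chains, 1 of 7 tested fell. Col5a1, the chain of type V that nucleates collagen fibrils (ENSMUSG00000026837, chromosome 2, 27886425 to 28039514, plus strand), had 17.0, 16.5 and 14.5 FPKM in S100a16+/-, against 23.4, 23.9 and 24.5 FPKM in WT. The libraries of each genotype lay close together. Its log2 change was -0.53 (SE 0.08, edgeR adjusted p = 0.0339), and -0.45 without S100a16+/- replicate 3 (edgeR adjusted p = 0.000695). With no filter on low values the call was lost (edgeR adjusted p = 0.0625). Its partner Col5a2 had 77.5, 75.1 and 57.8 FPKM in S100a16+/- and 90.5, 93.7 and 94.8 FPKM in WT. The groups did not overlap, but the change, -0.35 in log2 (SE 0.14), did not pass (edgeR adjusted p = 0.204), and was -0.22 without replicate 3 (edgeR adjusted p = 0.00751).

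Leaving out any library other than S100a16+/- replicate 3 ended the calls of Col15a1, Col14a1, Col8a2 and Col5a1, with edgeR adjusted p from 0.0623 to 0.164 over those 5 libraries. Their log2 changes stayed below 0 in all 6 of these fits: -3.22 to -2.64 for Col15a1, -1.88 to -1.51 for Col14a1, -1.78 to -1.48 for Col8a2 and -0.57 to -0.45 for Col5a1.

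The chains of type I, the main scar collagen, did not pass the test. Col1a1 (ENSMUSG00000001506, chromosome 11, 94936224 to 94953042, plus strand) had 203, 189 and 21.4 FPKM in S100a16+/- replicates 1 to 3, against 191, 202 and 221 FPKM in WT. In S100a16+/- replicates 1 and 2 this was 99.3% and 92.2% of the level in WT, and in replicate 3 only 10.5%. Its partner Col1a2 (ENSMUSG00000029661, chromosome 6, 4504814 to 4541544, plus strand) had 84.8, 85.0 and 14.9 FPKM in S100a16+/-, against 93.2, 108 and 114 FPKM in WT. Each S100a16+/- library was below each WT library. The log2 changes were -0.51 (SE 0.75) for Col1a1 and -0.71 (SE 0.62) for Col1a2 (edgeR adjusted p = 0.742 and 0.569). Without S100a16+/- replicate 3 they were 0.00049 (SE 0.07) and -0.24 (SE 0.09; edgeR adjusted p = 0.996 and 0.0875). In the library where both were low, the stellate and myofibroblast markers summed to 139 FPKM, 18.3% of the WT mean. The 7 mesothelial markers summed to 13.3 FPKM there, against 93.2 to 128 FPKM in WT. The part of these markers in the collagen levels was not tested. Not every stellate marker was low in that library: Lox, Rgs5 and Reln were above every WT library.

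Col3a1, the chain of type III, which forms thin fibrils beside type I (ENSMUSG00000026043, chromosome 1, 45311538 to 45349706, plus strand), had 14.2, 12.2 and 4.66 FPKM in S100a16+/-, against 26.6, 26.7 and 33.3 FPKM in WT. Unlike Col1a1, it was low in all 3 S100a16+/- libraries, at 49.0%, 42.1% and 16.1% of the WT mean. Its log2 change was -1.43 (SE 0.41, edgeR adjusted p = 0.121) over 6 libraries and -1.07 without S100a16+/- replicate 3 (SE 0.13, edgeR adjusted p = 0.00239). Col3a1 and Col5a2 lie tail to tail on chromosome 1, 24614 bases apart. Among the less abundant fibrillar chains, Col27a1, a cartilage collagen, had 0.708, 0.701 and 1.11 FPKM in S100a16+/- and 1.25, 1.28 and 1.52 FPKM in WT. Its log2 change was -0.63 (edgeR adjusted p = 0.151), and -0.87 without replicate 3 (edgeR adjusted p = 0.00354). Without that replicate only WT libraries reached 1 FPKM for this chain, so it had to differ there. Col11a1, which shares fibrils with type V, had 0.959, 1.08 and 0.127 FPKM in S100a16+/- and 1.25, 1.33 and 1.13 FPKM in WT (log2 change -0.71, edgeR adjusted p = 0.619; -0.21 and 0.201 without replicate 3).

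None of the 4 tested type IV chains passed over all 6 libraries by edgeR or by DESeq2, and 2 had an unadjusted p under 0.05 in each. By edgeR 22.0% of all genes had such a p. Col4a1 (ENSMUSG00000031502, chromosome 8, 11198423 to 11312826, minus strand) had 452, 425 and 635 FPKM in S100a16+/-, against 762, 701 and 693 FPKM in WT. Col4a2 (ENSMUSG00000031503, chromosome 8, 11312805 to 11449287, plus strand) had 289, 269.6 and 459 FPKM in S100a16+/-, against 559, 515 and 525 FPKM in WT. For both, every S100a16+/- library was below every WT library, as in 18.9% of all tested genes, and replicate 3 was the nearest to WT. Against their WT means, Col4a1 was at 62.9%, 59.2% and 88.3% and Col4a2 at 54.2%, 50.6% and 86.1%. The log2 changes were -0.46 (SE 0.17) for Col4a1 and -0.61 (SE 0.21) for Col4a2 (edgeR adjusted p = 0.189 and 0.173). Without S100a16+/- replicate 3 both were lower, at -0.65 and -0.87 (edgeR adjusted p = 0.000995 and 0.000282), where 16.4% of all genes were. In S100a16+/- replicates 1 to 3 the endothelial marker sum was 54.2%, 51.9% and 115% of that in WT, and its part in the type IV levels was not tested. Not every marker in that sum had this order: Oit3 and Clec4g were lowest in replicate 3. The hepatocyte marker sum was 11.2%, 11.3% and 575% of that in WT in the same 3 libraries, and its part was not tested either.

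Col18a1, the other multiplexin, whose C-terminal fragment is endostatin, followed a like order of libraries. It had 4.26, 4.18 and 15.1 FPKM in S100a16+/-, against 9.83, 10.7 and 12.4 FPKM in WT. Replicates 1 and 2 were below every WT library and replicate 3 above. Over 6 libraries its log2 change was -0.45 (SE 0.52) and missed the threshold (edgeR adjusted p = 0.671), and without replicate 3 it was -1.32 (SE 0.11, edgeR adjusted p = 0.000652). The same endothelial and hepatocyte sums stand beside this value, and their part was not tested. Col15a1, its closest relative, was lowest in replicate 3.

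The X-linked type IV chains Col4a5 and Col4a6, which join in the basement membranes of kidney and smooth muscle, had another order. Col4a5 had 16.2, 15.1 and 5.75 FPKM in S100a16+/- and 14.7, 17.9 and 17.5 FPKM in WT (log2 change -0.38, edgeR adjusted p = 0.628; -0.033 and 0.816 without replicate 3). Col4a6 had 3.28, 3.55 and 0.540 FPKM in S100a16+/- and 3.71, 4.40 and 4.98 FPKM in WT (log2 change -0.77, edgeR adjusted p = 0.558; -0.29 and 0.158 without replicate 3). Both were lowest in replicate 3, and the Col4a6 groups did not overlap. Col4a3 and Col4a4, chains of the glomerular membrane, had at most 0.286 FPKM, and each S100a16+/- library was above each WT library, as in 10.5% of the 19142 genes with the count minimum. Col4a3 had 162, 145 and 196 counts in S100a16+/- and 93, 55 and 41 counts in WT, and Col4a4 had 112, 67 and 58 counts in S100a16+/- and 17, 24 and 8 counts in WT. With the count minimum as the only filter (19142 genes, of which 1.42% were called higher) their log2 changes were 1.52 and 2.38 (edgeR adjusted p = 0.129 and 0.0745). Without replicate 3 in that fit, where 11.4% of genes were called higher and 23.2% in either direction, Col4a4 passed (2.54, edgeR adjusted p = 0.0181) and Col4a3 did not (1.35, edgeR adjusted p = 0.0686). Part of Col4a3 overlaps the antisense gene C430014B12Rik, which held 16.9% as many counts, and the sources do not say whether counting used the strand.

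The 3 tested chains of type VI, the microfilament collagen that surrounds cells, had every S100a16+/- library below every WT library, as in 18.9% of all tested genes. They did not pass by edgeR, where 2 had an unadjusted p under 0.05, against 22.0% of all genes. DESeq2 called 2 of them lower, where it called 5.98% of all genes lower. Col6a1 (ENSMUSG00000001119, chromosome 10, 76708792 to 76726168, minus strand) had 26.9, 25.6 and 8.46 FPKM in S100a16+/-, against 48.2, 56.3 and 63.1 FPKM in WT. Col6a2, also on chromosome 10, had 7.66, 7.64 and 2.26 FPKM in S100a16+/-, against 15.6, 18.3 and 22.2 FPKM in WT. Col6a3, on chromosome 1, had 4.51, 4.04 and 0.856 FPKM in S100a16+/-, against 8.61, 7.45 and 7.49 FPKM in WT. In each chain S100a16+/- replicate 3 was the lowest. The log2 changes were -1.40, -1.62 and -1.26 (edgeR adjusted p = 0.144, 0.127 and 0.279). Without replicate 3 all 3 were lower, at -1.03, -1.23 and -0.81 (edgeR adjusted p = 0.00201, 0.00272 and 0.00198), where 16.4% of all genes were.

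**Figure D4:**
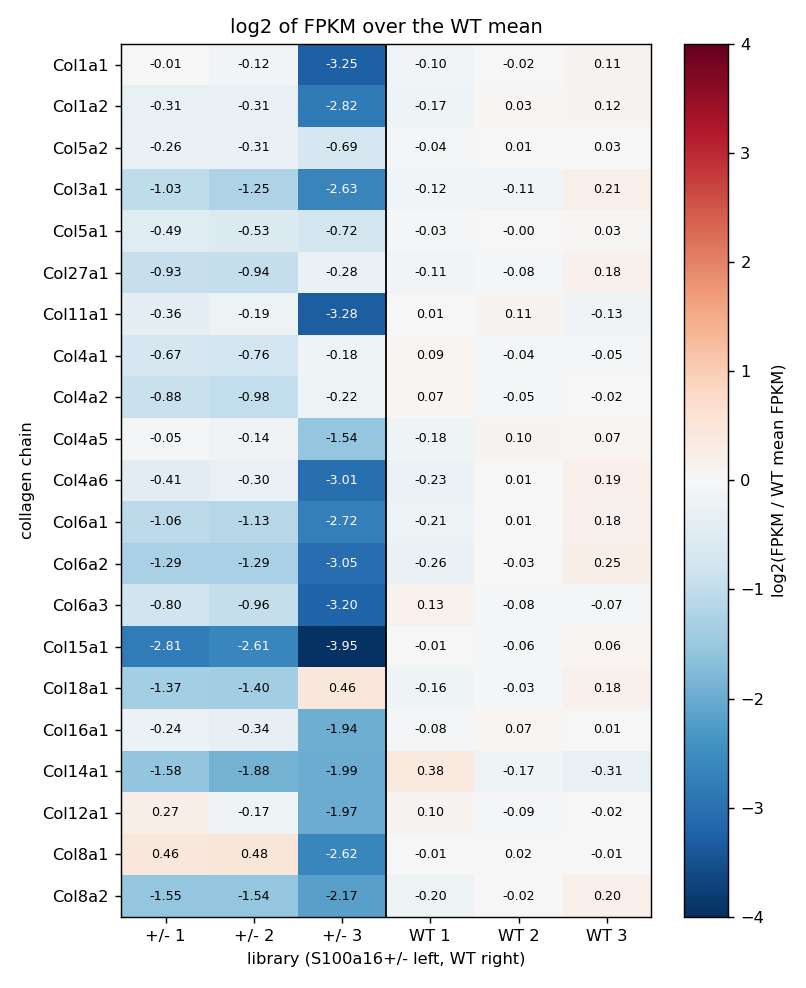
Each cell gives log2 of a chain's FPKM over its WT mean in 1 library, S100a16+/- columns left and WT columns right, for the 21 tested chains; blue is below and red above the WT mean. Col15a1, Col14a1, Col8a2, Col3a1 and the type VI chains are blue in all 3 S100a16+/- columns, Col1a1 and Col4a5 are near 0 in the first 2 and blue in the third, and Col18a1 is red in the third.

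Ratios within a library do not depend on scaling between libraries. Col1a1 stood over Col1a2 at an FPKM ratio of 2.39, 2.22 and 1.44 in S100a16+/- replicates 1 to 3, against 2.05, 1.87 and 1.93 in WT. Its mean of 2.02 ± 0.506 in S100a16+/- compared with 1.95 ± 0.0903 in WT (SD, n = 3 each), and it spread more among the S100a16+/- libraries. Col4a1 over Col4a2 was 1.56, 1.58 and 1.38 in S100a16+/- and 1.36, 1.36 and 1.32 in WT, and Col6a1 over Col6a2 was 3.51, 3.34 and 3.75 in S100a16+/- and 3.09, 3.07 and 2.84 in WT. In both pairs each S100a16+/- ratio was above each WT ratio. Col4a5 over Col4a6 was 4.92, 4.26 and 10.6 in S100a16+/- and 3.98, 4.08 and 3.52 in WT. Between collagen types, Col4a1 over Col1a1 was 2.23, 2.26 and 29.6 in S100a16+/- and 3.99, 3.48 and 3.14 in WT. These ratios are a description, with no test.

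**Figure D5:**
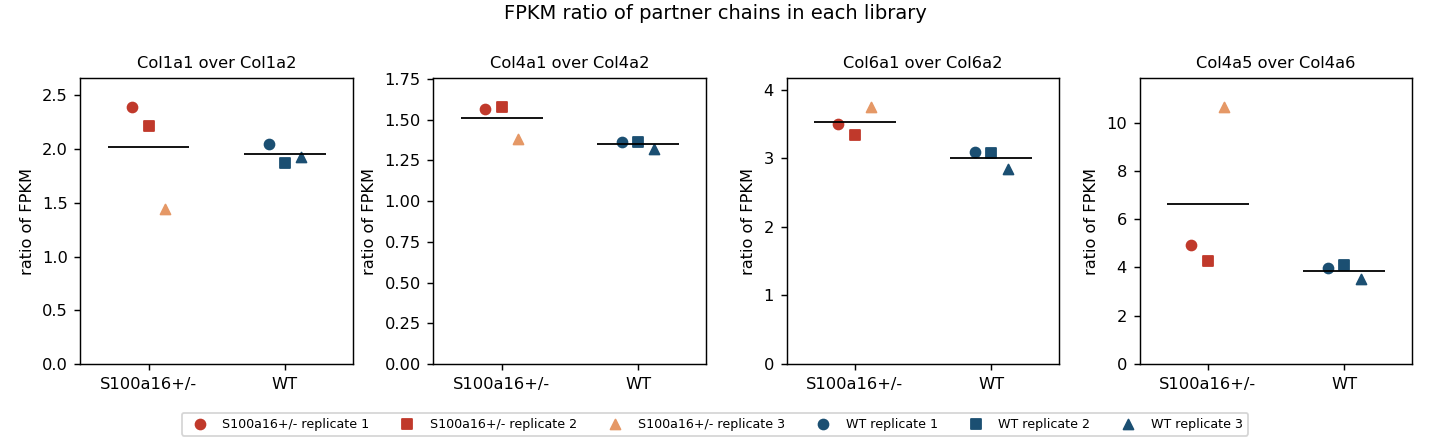
Points show the FPKM ratio of partner chains in each library, S100a16+/- on the left and WT on the right of each panel, with a line at the mean of 3 libraries; axes start at 0. The Col4a1 over Col4a2 ratios stay between 1.32 and 1.58, whereas Col1a1 over Col1a2 and Col4a5 over Col4a6 set S100a16+/- replicate 3 apart.

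The remaining chains under the FPKM minimum were low in all libraries, and with the count minimum as the only filter none passed over 6 libraries (edgeR adjusted p from 0.222 to 0.984; 0.805% of the 19142 genes were called lower). Col7a1, the anchoring fibril chain of skin, had 373, 375 and 476 counts in S100a16+/- and 689, 651 and 618 counts in WT (log2 change -0.54, edgeR adjusted p = 0.222). Without replicate 3 it was lower at -0.72 (edgeR adjusted p = 0.0167), where 11.9% of genes were. Col13a1, a transmembrane collagen, had 98, 86 and 60 counts in S100a16+/- and 22, 30 and 63 counts in WT. In FPKM each S100a16+/- library was above each WT library, and its log2 change of 1.21 did not pass (edgeR adjusted p = 0.233). Col23a1, another transmembrane chain, and the fibrillar chains Col5a3, Col11a2 and Col24a1 overlapped between the groups. So did Col9a2, Col9a3, Col19a1 and Col20a1. Col20a1 overlaps 9230112E08Rik on the same strand and Col9a3 overlaps Tcfl5 on the other, so their counts are uncertain. The 11 chains below the count minimum were Col2a1, Col6a4, Col6a5, Col6a6, Col9a1, Col10a1, Col17a1, Col22a1, Col25a1, Col26a1 and Col28a1, with at most 37 counts in any library. Just inside the minimum, Col9a2 and Col19a1 had 15 and 41 counts in their third-highest library, and just outside it Col17a1 and Col10a1 had 7 each.

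Genes that process, link or bind collagen were followed in the same fit. Of 43 tested genes in 5 lists, 1 rose and 1 fell (4.46% of all genes were called), and without S100a16+/- replicate 3, 4 were higher and 16 lower, where 15.8% and 16.4% of all genes were. Among the higher genes P3h2 reached 1 FPKM in S100a16+/- alone, and among the lower ones Fmod did in WT alone, so both had to differ. Tmem38b, the channel gene TRIC-B needed in the endoplasmic reticulum for collagen modification, rose: it had 8.97, 9.20 and 8.82 FPKM in S100a16+/- and 3.84, 4.58 and 4.41 FPKM in WT (log2 change 1.12, SE 0.09, edgeR adjusted p = 0.00671). It was the only one of 19 tested hydroxylase, chaperone and export genes called. Bgn, the proteoglycan biglycan that binds fibrils, fell among 7 fibril regulators, with 153, 156 and 172 FPKM in S100a16+/- and 273, 262 and 258 FPKM in WT (log2 change -0.67, SE 0.08, edgeR adjusted p = 0.0195). No gene of the propeptide proteinases (6 tested), crosslinking enzymes (5) or collagen receptors (6) passed by edgeR. At an unadjusted p under 0.05 these lists held 2, 1 and 0 genes, where 22.0% of all genes had such a p, and DESeq2 called 2, 1 and 0, where it called 14.8% of all genes. The smallest p there were those of Bmp1 and Pcolce2, Lox and Loxl2, and Lair1 and Itga1 (edgeR adjusted p = 0.120, 0.137, 0.166, 0.304, 0.352 and 0.450). Loxl2, a crosslinking oxidase, had 58.0, 55.3 and 103 FPKM in S100a16+/- and 104, 102 and 108 FPKM in WT, and as for Col4a1 replicate 3 was the S100a16+/- library nearest to WT. Lox also stands on the stellate marker list.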

How the data were processed

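Messenger RNA of 3 S100a16+/- and 3 WT stellate cell cultures was sequenced from both ends after oligo(dT) selection, with dUTP strand marking and adapters that carried molecular identifiers, per the labels' protocols. Among the tools in the submitters' processing notes, whose roles are unstated, are StringTie 1.3.4d and HISAT2 2.0.4, beside cutadapt 1.9, edgeR, UMI-tools and DESeq2. The deposited table gave, per the file headers, each of 55401 genes a count and an FPKM. The deposited counts were whole and unscaled. FPKM, as deposited, is scaled to length and library size, and a count of 0 carried a placeholder of 0.0001. Build, strand use and the handling of molecular identifiers were not given in the sources used here. Coordinates are as the table gives them, and 30 of the 33 chains had those of GENCODE M21 (GRCm38).

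Counts of genes that reached 1 FPKM in 3 or more of the 6 libraries entered the quasi-likelihood test of edgeR 4.0.16 (R 4.3.3) with TMM scaling, genotype being the only term, with Benjamini-Hochberg adjustment over all genes tested and calls at an adjusted p under 0.05. A positive log2 change means higher in S100a16+/-, and SE is its size over the root of the F statistic. The step was tested on simulated data. Chains under that minimum are given from a fit with the count minimum of 10 in 3 libraries. Alternatives were other filters, scalings and tools (DESeq2 1.42.0, limma 3.58.1), a replicate block and each library left out with the same genes tested. The fit that joined the count minimum with leaving out S100a16+/- replicate 3 was chosen after seeing the data. The members, lists and naming rule were chosen with earlier results of these data known. The rule named called chains, the 15 most abundant, the 5 largest changes, the chains of types I, III, IV, V and VI, called or lowest-p genes of each pathway list, and abundant markers, here mostly given as list sums; other chains are given by level. Promoter windows are RefSeq's. Depth covers counting error only, and protein sequences were not used here. The lymphocyte marker list is not reported here.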

Additional observations from a re-analysis of the deposited data

How the results depend on the processing

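The 570 genes called became 243 with no filter on low values, 1888 with DESeq2 and 0 with the replicate block (2207 at an unadjusted p under 0.05), and 32 to 4115 with a library left out. The 4 collagen chains called became 3 with no filter, where Col5a1 was lost (edgeR adjusted p = 0.0625), 8 with DESeq2, 0 with the replicate block by edgeR (9 at an unadjusted p under 0.05), and 0 to 14 with a library left out. Leaving out S100a16+/- replicate 3 gave the 14, and any other library 0 by edgeR (6 to 8 at an unadjusted p under 0.05). With the count minimum and without S100a16+/- replicate 3 together, 4450 genes, 16 of 33 chains and 20 pathway genes were called. The 2 pathway genes became 9 with DESeq2 and 0 with the replicate block, and 0 to 20 with a library left out. S100a16 missed the threshold at -1.36 with no filter and -1.39 with the replicate block (edgeR adjusted p = 0.0516 and 0.139), and ranged from -1.63 to -1.23 with a library left out, missing it in 5 of those 6 fits (edgeR adjusted p from 0.105 to 0.143). Of the calls, 63.9% were higher, against 52.8% with library totals and 51.3% with limma on log2(FPKM + 1). Col8a1 turned below 0 with library totals (-0.038), limma with pseudocounts of 1 and 0.1 (-0.37 and -0.53), the block (-0.42) and without S100a16+/- replicates 1 or 2 (-0.30 and -0.33), and ranged from -0.33 to 0.53 with a library left out. Without S100a16+/- replicate 3, Col12a1 turned to 0.13 and Col1a1 to 0.000486, and with a library left out they ranged from -0.75 to 0.13 and from -0.90 to 0.000486. The cause of these shifts was not tested. Whether the replicate numbers pair the libraries was not settled. Deviations from the group means correlated at -0.14, 0.04 and -0.05 across genes for the shared numbers, and at -0.08 to 0.11 for other pairs. S100a16+/- replicate 3 weighs on every deviation of its group, so these values cannot decide it. With a library left out, summed collagen FPKM stayed at 64.0% to 66.5% of WT. The type IV share, S100a16+/- minus WT, changed sign, from 2.28 percentage points over 6 libraries to -6.49 without S100a16+/- replicate 3. The fibrillar share difference was 0.21 over 6 libraries and 8.00 without that replicate, and -3.76 and -3.60 without S100a16+/- replicates 2 and 1 and -0.77 without WT replicate 1. Libraries left out 1 at a time left 92 of 126 fits of single chains on the same side and in the same direction.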
